A study of Homo sapiens with 9 samples.

Results

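The ADAM proteases are membrane proteins with a metalloprotease domain and a disintegrin domain. The catalytic members cut the outer part of other membrane proteins, which releases growth factors, cytokines and receptors from the cell surface. Their disintegrin domains can bind integrins, and ADAM9 is known as one of the members made by pancreatic carcinoma cells. They are synthesized as inactive precursors, and proprotein convertases such as furin remove the prodomain. A family of tetraspanins carries ADAM10 to the surface, and tissue inhibitors of metalloproteases block the active site of several members. A microRNA lowers the level of messenger RNAs that pair with its seed, the bases 2 to 8 from its 5′ end.

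The genes described here were chosen by name, as 10 ADAM genes, of which 7 had a probe set of their own among 14232 genes measured. ADAM9, ADAM12, ADAM15, ADAM19, ADAM22, ADAM23 and ADAM28 had 1 such probe set each. ADAM8, ADAM10 and ADAM17 were not measured here, because their probe sets were also annotated to MIR202, HSP90AB4P and IAH1, in that order, and no level was assigned to any of the 3. The samples were PANC-1, a cell line of epithelial type derived from a human carcinoma of the pancreas, harvested 72 h after treatment, with 3 biological replicates in each of 3 groups. The miR-520f cells received 20 nM of a synthetic miR-520f mimic (group C of the labels, miR520) with the lipid reagent. The negative control cells were given a control-sequence mimic at the same 20 nM (group B, NC), and the non-transfected cells received the lipid reagent and no mimic (group A, NT). All levels below are log2 intensities that the authors normalized between arrays by RMA, and a difference of 1 is a doubling. The intensity of a probe set also depends on its probes, so levels are compared between groups and not between genes.

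The mimic is a double-stranded RNA that copies a microRNA. The labels do not say which arm of the miR-520f hairpin it copies. The mature sequences of both arms are shown because the seed decides which messenger RNAs a microRNA can pair with, followed by 4 relatives whose seed is shifted by 1 base. The sequences are those of RefSeq (GRCh38.p14), written 5′ to 3′ with the seed in capitals.
miR-520f-3p: aAGUGCUUccuuuuagaggguu
miR-520f-5p: cCUCUAAAgggaagcgcuuucu
miR-520b-3p: aAAGUGCUuccuuuuagaggg
miR-520c-3p: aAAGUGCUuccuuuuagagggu
miR-372-3p: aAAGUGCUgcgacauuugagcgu
miR-302a-3p: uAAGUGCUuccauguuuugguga
The 3p arm lies at chr19:53682213-53682234 on the plus strand and the 5p arm at chr19:53682173-53682194 on the plus strand. Among 2370 human mature microRNA names in the table, 0 others carried the seed AGUGCUU of miR-520f-3p. A further 13 carried the first 6 bases of that seed shifted by 1 position, among them the miR-302, miR-372 and miR-520a to miR-520e sequences. The bases that would pair with the seed of miR-520f-3p read AAGCACU in a messenger RNA. The transcripts of the ADAM genes were not searched for them here.

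The deposited values lay between 2.23 and 13.6, with array medians of 4.22 to 4.34, and precision is limited by the 3 arrays per group. Replicate 1 of the negative control was the array least like its group (root mean square deviation over all genes 0.169, other arrays 0.0698 to 0.131), so values without it are given for the members called against that group. Of 6 epithelial markers, KRT8, KRT18, KRT19 and EPCAM were between 7.56 and 11.8 on all arrays, CDH1 at 5.39 to 6.67 and KRT7 at 3.43 to 3.56. With miR-520f, 2 of the 6 rose and 1 fell against negative control cells, and 3 rose and 1 fell against non-transfected cells. EPCAM rose (log2 fold changes of 1.68 and 1.57), as did CDH1 (1.15 and 1.07), while KRT19 fell (-0.68 and -0.75). Of 10 measured markers of immune, endothelial, fibroblast, acinar, endocrine and liver cells, 8 were between 2.88 and 4.04, among them PTPRC at 2.88 to 3.14. The exceptions were COL1A1 at 7.06 to 8.23 and CD68, a lysosomal glycoprotein, at 7.24 to 8.90. On a log2 scale the summed intensity of these 10 markers was 8.77 to 8.89 in miR-520f cells, 8.96 to 9.30 in negative control cells and 9.50 to 9.73 in non-transfected cells. The intensities were summed on the linear scale, so COL1A1 and CD68 make up most of that sum. CD68 was the 1 marker that fell with miR-520f against both controls (log2 fold changes of -0.90 and -1.31), and the part of these markers and of the epithelial ones in the results below was not tested.

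The first question was which ADAM genes differed between the miR-520f cells and each control. ADAM9 and ADAM15 fell with miR-520f against both controls, ADAM9 to 23.3% of its level in negative control cells and 31.9% of its level in non-transfected cells on the linear scale. ADAM19 was lower in miR-520f cells than in negative control cells and did not pass against non-transfected cells. ADAM22 was slightly higher in miR-520f cells than in negative control cells. ADAM12, ADAM23 and ADAM28 passed in no comparison.

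ADAM9, a catalytically active member that cuts growth factor precursors and binds integrins, measured 6.42, 6.995 and 6.83 in miR-520f cells. It measured 8.81, 8.91 and 8.85 in negative control cells, and 8.70, 8.43 and 8.07 in non-transfected cells. The 3 miR-520f arrays lay below all 6 control arrays, by more than the spread within any group. The group means were 6.75 ± 0.29 in miR-520f cells, 8.85 ± 0.05 in negative control cells and 8.40 ± 0.31 in non-transfected cells (SD, n = 3 each). The log2 fold changes were -2.10 against negative control cells (95% confidence interval -2.46 to -1.74, limma adjusted p = 4.39e-06) and -1.65 against non-transfected cells (-2.01 to -1.29, limma adjusted p = 2.52e-05). Counted from the largest fall, ADAM9 stood at place 17 of 14232 genes against negative control cells and at place 51 against non-transfected cells. Without replicate 1 of the negative control its log2 fold change against that group was -2.13. In whole-culture RNA of this kind, less RNA per cell and fewer cells that carry it cannot be told apart.

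ADAM15, a catalytic member whose disintegrin domain binds integrins, measured 4.51, 4.54 and 4.40 in miR-520f cells. The values were 5.38, 5.15 and 4.83 in negative control cells, and 5.11, 4.88 and 4.84 in non-transfected cells. The miR-520f arrays were again below all 6 control arrays, although the lowest control array stood only 0.29 above the highest miR-520f array. ADAM15 fell by 0.63 on the log2 scale against negative control cells (interval -0.92 to -0.35, limma adjusted p = 0.00296) and by 0.46 against non-transfected cells (interval -0.74 to -0.18, limma adjusted p = 0.0189). Without replicate 1 of the negative control the log2 fold change against that group was -0.51. The call against non-transfected cells rested on single arrays. It was lost without replicate 3 of miR-520f (log2 fold change -0.42, limma adjusted p = 0.0740), without replicate 1 of the non-transfected cells (-0.37, limma adjusted p = 0.0756) and in a fit without moderation (adjusted p = 0.0856).

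ADAM19, a catalytic member known to cut neuregulins, measured 3.98, 3.95 and 3.84 in miR-520f cells and 4.55, 4.39 and 4.28 in negative control cells. In non-transfected cells it measured 3.70, 3.84 and 3.86. The negative control arrays were the high ones and lay above all 6 others, while the miR-520f and non-transfected arrays overlapped. ADAM19 was lower in miR-520f than in negative control cells by a log2 fold change of -0.48 (interval -0.68 to -0.29, limma adjusted p = 0.00152). Against non-transfected cells its log2 fold change was 0.12 (interval -0.07 to 0.32, limma adjusted p = 0.392), and 0.07 without replicate 1 of the non-transfected cells. The difference between the control groups themselves passed the test: ADAM19 was higher in negative control than in non-transfected cells by 0.61 (interval 0.41 to 0.80, limma adjusted p = 0.000987). Without replicate 1 of the negative control these differences were -0.41 for miR-520f against negative control cells and 0.53 for negative control against non-transfected cells.

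ADAM22 and ADAM23 lack a working protease site and are known in neurons as receptors of the secreted protein LGI1. ADAM22 measured 4.22, 4.26 and 4.25 in miR-520f cells, 4.14, 3.98 and 3.90 in negative control cells, and 4.18, 4.16 and 4.16 in non-transfected cells. The miR-520f arrays lay above all 6 control arrays, but all 9 arrays spanned only 0.37 on the log2 scale. The log2 fold change was 0.24 against negative control cells (interval 0.08 to 0.41, limma adjusted p = 0.0310, and 0.31 without replicate 1 of the negative control) and 0.08 against non-transfected cells (interval -0.09 to 0.24, limma adjusted p = 0.564). The call against negative control cells was lost in a fit of those groups alone (adjusted p = 0.0607). It was also lost without any 1 of the 3 miR-520f arrays (adjusted p = 0.0753 to 0.0895), without replicate 2 or 3 of the negative control (adjusted p = 0.0902 and 0.108) and without replicate 2 of the non-transfected cells (adjusted p = 0.0524).

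ADAM23 lay between 3.26 and 3.51 on the 9 arrays, and the groups overlapped. Among the remaining catalytic members, ADAM12, which can release heparin-binding EGF, lay between 2.90 and 3.11, and ADAM28, first described in lymphocytes, between 2.99 and 3.32. The lowest deposited value was 2.23, so these probe sets left no room for a fall of the size measured for ADAM9. RMA compresses differences at such levels and no background readings were used, so whether these RNAs were present is not stated. For ADAM12 the 95% intervals of the log2 fold change were -0.18 to 0.15 against negative control cells and -0.20 to 0.14 against non-transfected cells. For ADAM23 they were -0.26 to 0.06 and -0.23 to 0.09 against the same groups, and for ADAM28 -0.27 to 0.13 and -0.30 to 0.11.

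**Figure D1:**
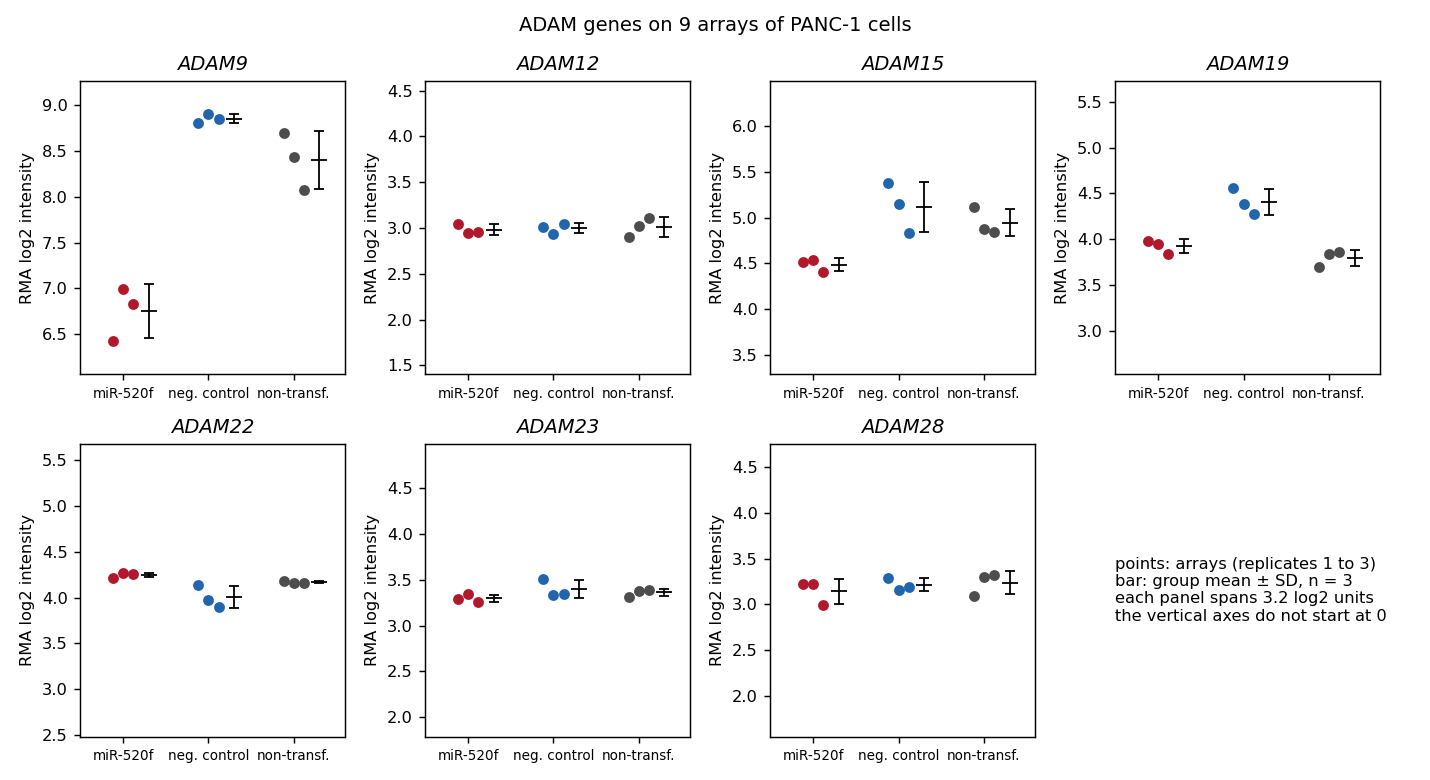
RMA log2 intensity (vertical axis) of the 7 measured ADAM genes on each array, with miR-520f, negative control and non-transfected cells from left to right, where points are arrays and bars give the group mean ± SD (n = 3). The miR-520f arrays of ADAM9 (6.42 to 6.995) and ADAM15 (4.40 to 4.54) lie below all 6 control arrays, the negative control arrays of ADAM19 (4.28 to 4.55) lie above all others, and ADAM12, ADAM23 and ADAM28 overlap between groups.

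As counts, 1 of 7 members rose, 3 fell and 3 were not called against negative control cells, where 28.1% of all genes were called in either direction (15.4% higher and 12.6% lower). Against non-transfected cells 0 rose, 2 fell and 5 were not called, where 27.6% of all genes were called (14.5% higher and 13.1% lower). The share of the members called against non-transfected cells, 28.6%, was near that background. The background depended on level. Of the 7116 genes above the median level, tested alone, 3556 were called against negative control cells and 3423 against non-transfected cells. No share matched for level was computed for the members or for the lists below. ADAM9 and ADAM15 were the 2 members called lower against both controls, as were 8.61% of all genes. The median log2 fold change of the members was -0.10 against negative control cells and -0.07 against non-transfected cells, beside -0.03 and -0.03 over all genes. In 3 of 7 members the miR-520f arrays did not overlap with any control array, as in 25.4% of all genes. Both miR-520f comparisons share the miR-520f arrays, so these counts are not independent of each other.

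The third comparison asked which members differed between the control groups themselves. ADAM19 was the 1 member of 7 called between negative control and non-transfected cells, where 15.3% of all genes were called. ADAM9 was higher in negative control cells on all 3 arrays (8.81 to 8.91, against 8.07 to 8.70 in non-transfected cells), with a log2 fold change of 0.45 (interval 0.09 to 0.81). That difference missed the threshold (limma adjusted p = 0.0951) and passed without replicate 1 of the non-transfected cells (0.60, limma adjusted p = 0.0359). Without replicate 3 of the non-transfected cells it was 0.29 (limma adjusted p = 0.288). ADAM22 differed by -0.16 (interval -0.33 to 0.00, limma adjusted p = 0.193) and passed without replicate 1 of the negative control (-0.23, limma adjusted p = 0.0427). The negative control arrays stood apart from all 6 other arrays in 3 of 7 members, as in 12.6% of all genes. ADAM15 differed by 0.18 (interval -0.11 to 0.46), with 0.05 without replicate 1 and 0.32 without replicate 3 of the negative control (limma adjusted p = 0.917 and 0.0767), and ADAM12, ADAM23 and ADAM28 by -0.01, 0.03 and -0.02.

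**Figure D2:**
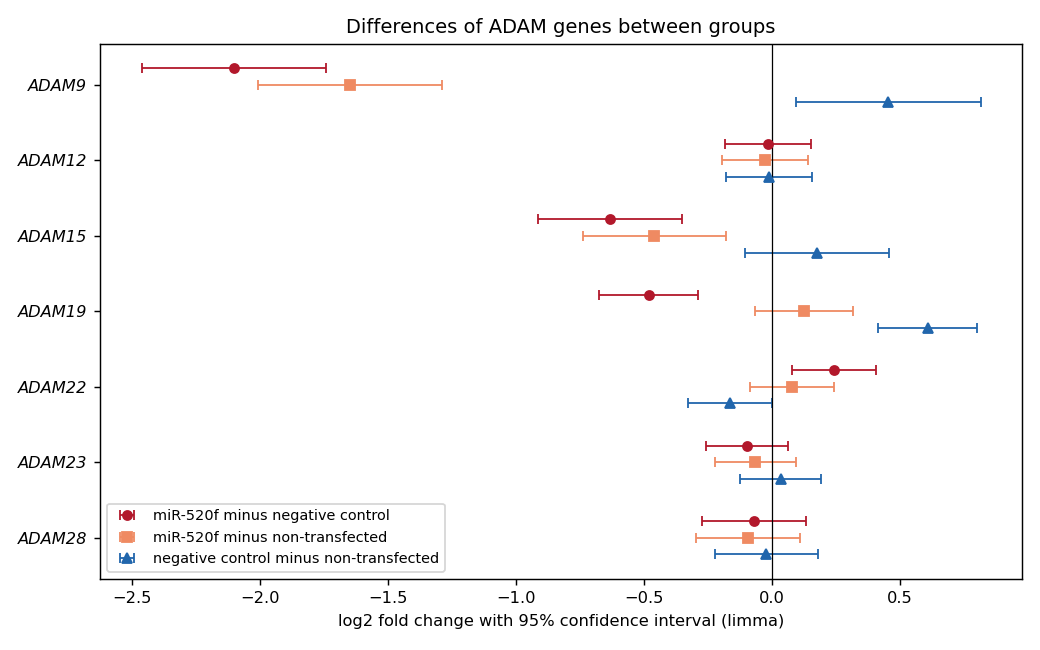
Log2 fold changes of the 7 ADAM genes (horizontal axis) with 95% confidence intervals from limma, for miR-520f minus negative control, miR-520f minus non-transfected and negative control minus non-transfected cells. ADAM9 lies at -2.10 and -1.65 against the controls, and ADAM19 differs between the controls by 0.61 with its miR-520f level close to non-transfected cells (0.12).

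Other proteases of the superfamily were examined for the same comparisons. Of 8 measured further ADAM genes, 0 rose and 0 fell in either miR-520f comparison by limma, with 0 at an unadjusted p under 0.05 and 0 called without moderation, where 28.1% and 27.6% of all genes were called. Their levels lay between 2.59 and 4.53, and their median log2 fold changes were -0.05 against negative control and -0.09 against non-transfected cells. For the dimmest, such as ADAM29 at 2.59 to 2.86, the level left little room for a fall. ADAM11 lay higher at 4.25 to 4.53 and ADAM33 at 3.90 to 4.12. Whether level limited the calls was not tested. The secreted ADAMTS proteases, which cut matrix proteins, gave the same counts for 17 measured genes against the same background of 28.1% and 27.6%, at similarly low levels between 2.80 and 4.52. Their median log2 fold changes were -0.07 and -0.04, and single values ran from -0.19 to 0.05 against negative control cells and from -0.14 to 0.13 against non-transfected cells. For both lists the share over all genes is not one at such low levels. It includes brighter genes, of which a larger part was called (3556 and 3423 of 7116 above the median level, tested alone).

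Among 20 measured genes of ADAM maturation and trafficking, 4 rose and 2 fell against negative control cells and 4 rose and 4 fell against non-transfected cells, with median log2 fold changes of -0.03 and -0.05, beside -0.03 and -0.03 over all genes. The share of the list called was 30.0% and 40.0%, against 28.1% and 27.6% of all genes, and the first of these was near the background. Between negative control and non-transfected cells 40.0% of the list was called, against 15.3% of all genes. FURIN, a convertase that removes ADAM prodomains, measured 5.9985, 6.06 and 5.89 in miR-520f cells. It measured 6.52, 6.60 and 6.48 in negative control cells, and 6.71, 6.59 and 6.53 in non-transfected cells. FURIN thus lay lower on all 3 miR-520f arrays, with log2 fold changes of -0.55 and -0.63 against negative control and non-transfected cells (limma adjusted p = 0.000263 and 0.000112). The listed convertase PCSK7 went the other way against negative control cells (0.80, limma adjusted p = 0.000348), whose arrays were the low ones. It was not called against non-transfected cells (-0.11), and PCSK5 and PCSK6 were called against neither control. TSPAN15, a tetraspanin that binds ADAM10, measured 9.10, 9.08 and 9.09 in miR-520f cells, 9.47, 9.48 and 9.52 in negative control cells, and 9.69, 9.70 and 9.68 in non-transfected cells. It fell by 0.40 and by 0.60 on the log2 scale against these controls, with no overlap between any of the groups. TSPAN14, another tetraspanin of that family, rose by 0.32 and 0.24 (limma adjusted p = 0.00955 and 0.0377). The TSPAN14 call against non-transfected cells was lost without replicate 1 or 2 of miR-520f (limma adjusted p = 0.138 and 0.108) and without replicate 2 or 3 of the non-transfected cells (limma adjusted p = 0.130 and 0.107). It was also lost after quantile normalization, among genes above the median level and with all probe sets tested (limma adjusted p = 0.0816, 0.0510 and 0.0552). MAD2L1, which is known for the spindle checkpoint and was listed because it binds the tail of ADAM17, rose by 1.11 and 1.56.

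Of 5 measured inhibitors, 2 rose and 1 fell against negative control cells and 1 rose and 1 fell against non-transfected cells, with median log2 fold changes of 0.05 and 0.01. That is 60.0% and 40.0% of the list, against 28.1% and 27.6% of all genes, a share not matched for level. The controls themselves differed in 40.0% of the list, against 15.3% of all genes. TIMP1, a secreted inhibitor of metalloproteases, measured 9.93, 10.1 and 9.98 in miR-520f cells, 10.9, 11.2 and 11.2 in negative control cells, and 11.3, 11.3 and 11.1 in non-transfected cells. All miR-520f arrays were low. RECK, a membrane-anchored inhibitor of metalloproteases that also acts on ADAM10, measured 6.89, 6.78 and 6.94 in miR-520f cells. It measured 5.89, 6.16 and 6.14 in negative control cells, and 5.24, 5.31 and 5.31 in non-transfected cells. RECK rose by 0.81 and by 1.59 against these controls (limma adjusted p = 3.58e-05 and 4.03e-07), and it also differed between the controls by 0.78. TIMP3, which inhibits several ADAM proteases, lay between 3.29 and 3.55 and was not called.

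Of 14 measured ligands that ADAM proteases release, 3 rose and 1 fell against negative control cells, and 2 rose and 1 fell against non-transfected cells, with median log2 fold changes of -0.08 and -0.07. The ligands that fell were different genes. NRG2 fell against negative control cells (-0.25, limma adjusted p = 0.0499) and was not called against non-transfected cells (-0.16). HBEGF fell against non-transfected cells (-0.75, limma adjusted p = 0.00376) and was not called against negative control cells (-0.30). The share called, 28.6% and 21.4%, was near or below that of all genes (28.1% and 27.6%). Between the controls 21.4% of the list was called, against 15.3% of all genes. JAG1, a Notch ligand, measured 6.57, 6.54 and 6.59 in miR-520f cells, 5.03, 5.29 and 5.10 in negative control cells, and 6.33, 6.27 and 5.98 in non-transfected cells. The negative control arrays were the low ones, so JAG1 rose by 1.42 against them and by 0.37 against non-transfected cells. The JAG1 call against non-transfected cells was lost without replicate 1 or 3 of miR-520f (limma adjusted p = 0.0544 and 0.0600), without replicate 3 of the non-transfected cells (log2 fold change 0.26, limma adjusted p = 0.0628) and without moderation (adjusted p = 0.0643). For the chemokine CX3CL1 the negative control arrays were low too (log2 fold change -0.33 against non-transfected cells, limma adjusted p = 0.0308). With miR-520f, CX3CL1 rose by 0.67 against negative control cells and by 0.34 against non-transfected cells. Its call against non-transfected cells was lost without replicate 1 or 2 of miR-520f (limma adjusted p = 0.0769 and 0.0580), without replicate 2 or 3 of the non-transfected cells (limma adjusted p = 0.0560 and 0.0570) and after quantile normalization (limma adjusted p = 0.0572).

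Among 20 measured receptors and adhesion molecules that are cut at the surface, 6 rose and 8 fell against negative control cells, and 5 rose and 7 fell against non-transfected cells, with median log2 fold changes of -0.02 and -0.10. These calls make up 70.0% and 60.0% of the list, against 28.1% and 27.6% of all genes. The share over all genes is not matched for level. Above the median level, tested alone, 3556 and 3423 of 7116 genes were called in these comparisons. Between negative control and non-transfected cells 35.0% of the list was called, against 15.3% of all genes. AXL, a receptor kinase that ADAM10 and ADAM17 can cut, measured 7.61, 7.59 and 7.41 in miR-520f cells, 9.49, 9.68 and 9.58 in negative control cells, and 9.07, 8.89 and 8.85 in non-transfected cells. The order of its groups was that of ADAM9, with miR-520f lowest and negative control highest. CD44, the hyaluronan receptor, measured 7.52, 7.43 and 7.47 in miR-520f cells, 8.48, 8.83 and 8.98 in negative control cells, and 9.05, 9.05 and 9.03 in non-transfected cells, so here the non-transfected arrays were highest. The interleukin-6 receptor IL6R rose (log2 fold changes of 1.92 and 2.38), as did E-cadherin, CDH1 (1.15 and 1.07). Of 4 EGF receptor genes, 1 rose and 1 fell against negative control cells, and 0 rose and 1 fell against non-transfected cells, with median log2 fold changes of 0.02 and -0.10. Over all genes 28.1% and 27.6% were called, and 1 of 4 against non-transfected cells is near that share. The controls themselves differed in 2 of the 4, where 15.3% of all genes were called. EGFR, the receptor of ligands that ADAM proteases release, measured 8.49, 8.38 and 8.52 in miR-520f cells, 9.20, 9.20 and 9.01 in negative control cells, and 8.95, 8.93 and 8.81 in non-transfected cells. It fell by 0.68 and by 0.43 on the log2 scale against these controls (limma adjusted p = 9.24e-05 and 0.00199).

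Of 9 measured integrin chains of the kind that bind ADAM disintegrin domains, 1 rose and 4 fell against negative control cells, and 2 rose and 4 fell against non-transfected cells, with median log2 fold changes of -0.16 and -0.19. Called were 55.6% and 66.7% of the chains, against 28.1% and 27.6% of all genes, again a share not matched for level. The controls differed from each other in 33.3% of the chains, against 15.3% of all genes. ITGB3, the beta chain of a vitronectin receptor, measured 5.55, 5.75 and 5.55 in miR-520f cells, 6.72, 6.90 and 6.76 in negative control cells, and 6.67, 6.62 and 6.30 in non-transfected cells. It fell by 1.18 and by 0.91 on the log2 scale (limma adjusted p = 1.24e-05 and 7.99e-05). The collagen receptor chain ITGA2 fell by 0.98 and by 0.55, the laminin receptor chain ITGA3 by 0.48 and by 0.79, and ITGB5 by 0.73 and by 0.43. The fibronectin receptor chain ITGA5 went the other way and rose by 0.37 and by 1.40 (limma adjusted p = 0.0108 and 1.42e-06), and it also differed between the controls by 1.03. The ITGA2 call against non-transfected cells was lost without moderation (adjusted p = 0.0643). The broadly used chain ITGB1 did not pass (-0.12 and -0.19 on the log2 scale).

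**Figure D3:**
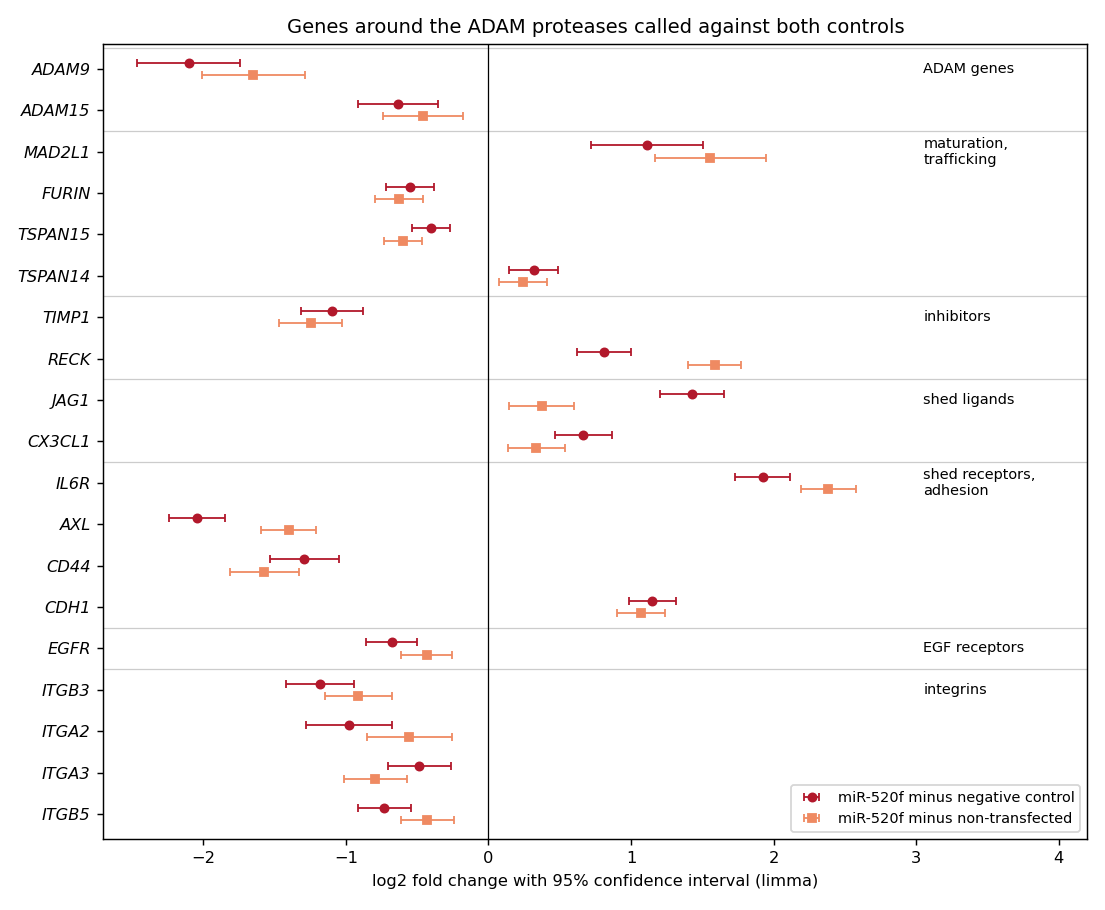
Log2 fold changes with 95% confidence intervals from limma (horizontal axis) of ADAM9, ADAM15 and the related genes called against both controls, at most 4 of each list, for miR-520f minus negative control (circles) and miR-520f minus non-transfected cells (squares). FURIN (-0.55 and -0.63), TSPAN15 (-0.40 and -0.60) and the 4 integrin chains shown lie below 0 with ADAM9, while RECK (0.81 and 1.59) and IL6R (1.92 and 2.38) lie above 0.

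The genes whose pattern was most like that of ADAM9 were found by the root mean square difference, over the 9 arrays, between each gene's deviations from its own mean. That measure was 0.923 for the median gene. A gene that did not vary at all would stand at 0.926, the root mean square deviation of ADAM9 itself, so the median mainly reflects genes that vary little. It was 0.173 for CA13, a carbonic anhydrase, 0.185 for ABLIM3, an actin-binding protein, and 0.189 for APPL2, an endosomal adaptor. CYB5R4, a cytochrome b5 reductase, and PLPBP, a pyridoxal phosphate-binding protein, followed at 0.210 and 0.215. CA13 measured 3.55, 3.61 and 3.60 in miR-520f cells, 5.79, 5.69 and 5.55 in negative control cells, and 5.36, 5.23 and 5.14 in non-transfected cells. APPL2 measured 4.62, 4.67 and 4.60 in miR-520f cells, 6.84, 6.88 and 7.03 in negative control cells, and 6.50, 6.45 and 6.28 in non-transfected cells. In each of the 5 genes the miR-520f arrays were lowest, the negative control arrays highest and the non-transfected arrays between them. These genes were picked for that likeness, so their differences carry no test here. ADAM9 itself varied more within the miR-520f group (SD 0.29) than any of the 5 genes did (SD 0.03 to 0.08).

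**Figure D4:**
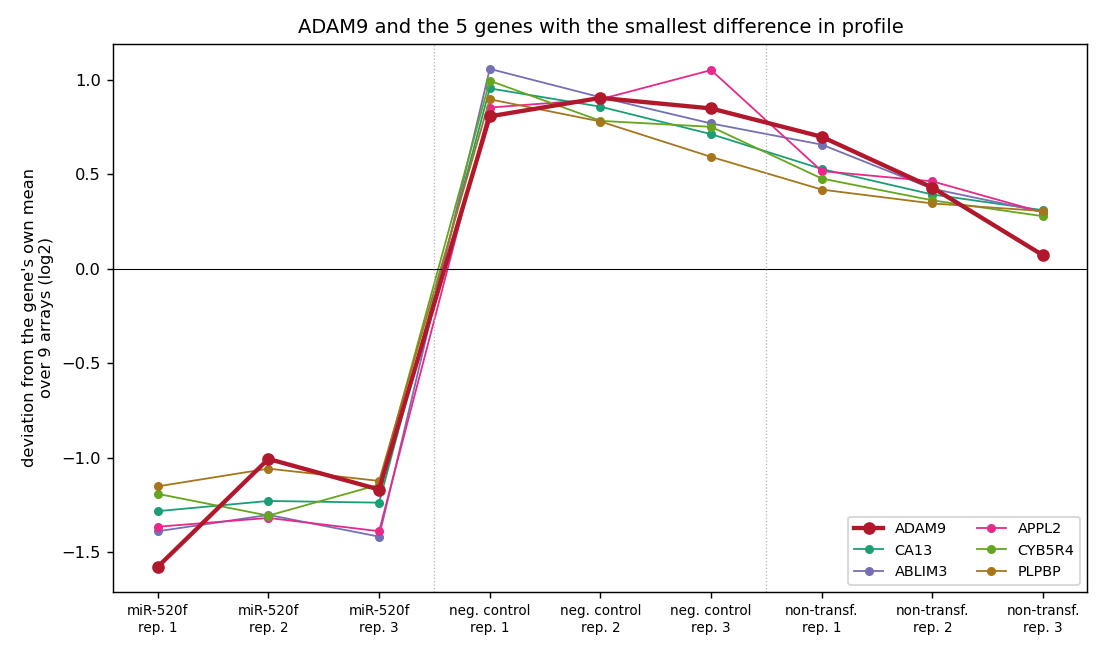
Deviation of the log2 intensity from each gene's own mean over the 9 arrays (vertical axis) for ADAM9 (thick line) and the 5 genes with the smallest difference from it, with the miR-520f, negative control and non-transfected arrays from left to right. The lines run together within 0.173 to 0.215 (root mean square, log2) of ADAM9.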

How the data were processed

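RNA of PANC-1 cells was hybridized to 9 arrays, 3 in each group, and the groups were taken from the sample titles. The authors deposited log2 intensities of 22011 probe sets. Partek 6.6, RMA and the build hg18 are named in the submitters' processing notes, and their settings and any probe set filter are not given in the sources used here. Probe sets were named through the platform annotation: 14432 had 1 gene symbol, 2408 had several and 5171 were unnamed. Per gene the single-symbol probe set with the highest mean over 9 arrays was used, which gave 14232 genes. Entrez identifiers of 14404 of the single-symbol probe sets matched the RefSeq gene table (GRCh38.p14). No gene coordinates are given, since the builds differ.

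All 9 arrays entered one linear model with a mean for each group, fitted and moderated by empirical Bayes in limma 3.58.1 under R 4.3.3, and p-values were Benjamini-Hochberg adjusted over all 14232 genes, with calls at an adjusted p under 0.05. The fit was tested on simulated data. Replicates are labelled biological, but nothing says whether they were separate cultures, and the p-values therefore reflect array-to-array spread only, which may be technical. Described genes were all listed ADAM genes, up to 4 genes of each related list called against both controls (by the smaller log2 fold change), and the 5 profiles most like ADAM9. Further list members (PCSK5, PCSK6, PCSK7, TIMP3, ITGB1, ITGA5, NRG2, HBEGF, ADAM11, ADAM29, ADAM33) were named after their values were seen. The members and lists were chosen with earlier results of these data known. Arrays were not treated as paired by replicate number. Correlations of same-numbered deviations from the group means ran from -0.03 to 0.20 and were over 0.1 in 4 of 9 pairs. Those of other pairs ran from -0.44 to 0.33. These ranges do not settle whether the arrays were paired, and a fit with the replicate number as a block is given below. Alternatives covered scaling, a filter on dim genes, probe set choice, moderation, the groups fitted, a replicate block and leaving out each array.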

Additional observations from a re-analysis of the deposited data

How the results depend on the processing

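Of 21 fold changes of ADAM genes (7 genes in 3 comparisons), 17 kept their direction, where called, and their side of the threshold under every alternative that tested them, and ADAM12, ADAM19, ADAM22, ADAM23 and ADAM28 were not tested among genes above the median level. ADAM9 ranged from -2.22 to -1.94 against negative control cells and from -1.81 to -1.49 against non-transfected cells over 17 alternatives. The exceptions, given above, were ADAM15 against non-transfected cells, ADAM22 against negative control cells, and ADAM9 and ADAM22 between the controls, where ADAM9 also passed among genes above the median level (adjusted p = 0.0455). No ADAM call reversed. The number of members called against negative control cells was 2 among genes above the median level, as only 2 members were tested there. It was 3 in a fit of those groups alone and 3 to 4 with single arrays left out, where the ADAM22 call was the one lost. Against non-transfected cells the number of members called was 1 without moderation and 1 to 2 with single arrays left out, and between the controls 1 to 2. Over all genes the calls between the controls were 1287 without moderation and 1394 to 2181 with single arrays left out (1394 without replicate 2 of the non-transfected cells), against 2174. With the replicate number as a block, 4, 2 and 1 members were called in the 3 comparisons, and 4159, 4060 and 2297 genes, so the block changed no member's call. By mean correlation of deviations, 7 of 9 arrays matched their own number best, which is a hint from the data and not from the design. Of 42 fold changes of the 21 related and marker genes named as called against both controls, 38 kept their call in all alternatives that tested them. The others, all against non-transfected cells, were CX3CL1, JAG1, ITGA2 and TSPAN14, which lost their calls without a change of direction. The cause of these changes was not tested. Dim probe sets limit what ADAM12, ADAM23 and ADAM28 can show. ADAM19 (3.70 to 4.55 on the 9 arrays) and ADAM22 (3.90 to 4.26) were also below the median level. ADAM19 was still called lower against negative control cells (log2 fold change -0.48). Whether level limited the fold changes of these 2 genes was not tested.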
